A study of Mus musculus with 4 samples.

Results

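The mucolipins are the 3 members of the TRPML family of cation channels, encoded by *Mcoln1*, *Mcoln2* and *Mcoln3*. They were selected by name from 19938 genes with a single gene symbol in the array annotation, with earlier results of these arrays in view, among them the increase of *Mcoln3*. Their difference between treatments is therefore given as a description, without a test. Where their limma calls are mentioned, nothing is read from them. Each gene had 1 probe set, and no probe set with several symbols named a mucolipin, so that no choice between probe sets was needed. Whether a probe set also reads a related mucolipin was not tested, since the probe sequences were not used here.

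Mucolipins sit in the membranes of late endosomes and lysosomes and let calcium and other cations out of these compartments. They are opened by the lipid PI(3,5)P2, which the kinase Pikfyve makes on the same membranes. The calcium released by TRPML1 acts on nearby sensors, and through the phosphatase calcineurin it lets the transcription factor TFEB enter the nucleus, where TFEB and its relative TFE3 switch on genes of lysosomes and autophagy. *Mcoln1* is used in most tissues, and its loss causes mucolipidosis type IV in humans. *Mcoln2* is known from lymphoid and myeloid cells. *Mcoln3* lies directly beside it on mouse chromosome 3, and its overactive alleles cause deafness and a spotted coat in varitint-waddler mice.

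The study restored Ikaros, a zinc finger transcription factor, to cells without it and asked how mRNA levels respond. ILC87 is a line from 1 thymic tumour of an Ikaros f/f Lck-cre+ mouse (labelled C57BL/6, while the methods give such mice a mixed background), in which Cre under the Lck promoter removes Ikaros from the T lineage. All 4 samples were ILC87-Ik1-ER cells, which carry a MigR1 retrovirus for full-length Ikaros-1 fused to the hormone-binding domain of ER (the oestrogen receptor), with GFP as a marker, and were sorted for GFP. Of these samples 2 received 100 nM 4-hydroxytamoxifen (4OHT), the ligand that brings Ik1-ER into the nucleus, and 2 received its vehicle, ethanol (EtOH), each for 24 h. No array analysed here holds 4OHT-treated cells without Ik1-ER, so that effects of 4OHT itself cannot be told apart from those of Ik1-ER.

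Values are log2 RMA expression values from Affymetrix Mouse Gene ST 1.0 arrays, on which a difference of 1 means a doubling. A gene was called higher or lower at a Benjamini-Hochberg adjusted p under 0.05 from limma over all 35556 probe sets. By this rule 246 genes were higher and 597 lower with 4OHT. Nothing says that samples 1 and 2 of a treatment came from separate cultures, so that their spread may be technical. With 2 arrays per treatment the smallest p of an exact two-sided permutation test is 0.333. T-cell markers were bright, with EtOH means from 8.04 for *Cd2* to 13.29 for *Cd3e* over the 7 genes measured. The 4 B-cell, 5 myeloid, 5 melanocyte and 2 erythroid markers measured all had EtOH means of at most 7.06, below the array medians of 7.11 to 7.16. The mean of the T-cell markers was 10.99 to 11.01 on the EtOH arrays and 11.28 to 11.34 on the 4OHT arrays, and that of the B-cell markers 5.68 to 5.81 and 5.87 to 5.92. The mean of the myeloid markers was 6.03 to 6.04 and 5.91 to 5.96, that of the melanocyte markers 6.00 to 6.01 and 6.00 to 6.16, and that of the erythroid markers 6.93 to 6.94 and 6.92 on both. Only the melanocyte means of the treatments overlapped. Of the T-cell markers *Cd2* and *Cd5* rose and *Cd3d* fell. Of the myeloid markers *Itgam* rose (log2 difference 0.68, limma adjusted p = 0.0239) and *Lyz2* fell (−1.24, limma adjusted p = 0.0104). Thus 42.86% of the T-cell and 40% of the myeloid markers were called, against 4.23% of all genes. No B-cell, melanocyte or erythroid marker was called by limma (1, 0 and 0 at an unadjusted p under 0.05). Lists this short can hold no call at a share of 4.23%, so nothing is read from their lack of calls. The part of cells of these other kinds in the results was not tested. In these bulk samples more cells with a transcript and more transcript per cell cannot be told apart.

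The promoter windows of the 3 genes are shown because *Mcoln2* and *Mcoln3* are neighbours whose 4OHT arrays both lay above the EtOH arrays, while *Mcoln1* lies elsewhere. They run from 250 bases before to 50 bases after the start site in RefSeq (build GRCm38.p6, all on the + strand). The *Mcoln3* window lies at chr3:146121541-146121840, that of *Mcoln2* at chr3:146149924-146150223 and that of *Mcoln1* at chr8:3500269-3500568. Capitals mark AGGAA, the core letters of Ikaros-type sites, and CACGTG, the core of the sites that TFEB family factors bind, each searched on both strands.
Mcoln3: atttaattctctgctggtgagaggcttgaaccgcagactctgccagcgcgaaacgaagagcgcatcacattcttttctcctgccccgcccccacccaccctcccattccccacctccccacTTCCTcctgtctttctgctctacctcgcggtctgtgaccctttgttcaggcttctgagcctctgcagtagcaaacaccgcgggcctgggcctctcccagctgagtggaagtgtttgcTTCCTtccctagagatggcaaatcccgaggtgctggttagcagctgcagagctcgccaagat
Mcoln2: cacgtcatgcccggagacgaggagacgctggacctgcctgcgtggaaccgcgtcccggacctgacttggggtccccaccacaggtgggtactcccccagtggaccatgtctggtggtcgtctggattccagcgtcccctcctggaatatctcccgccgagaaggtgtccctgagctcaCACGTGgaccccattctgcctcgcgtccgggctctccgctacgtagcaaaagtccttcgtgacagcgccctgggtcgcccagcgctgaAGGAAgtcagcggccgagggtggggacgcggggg
Mcoln1: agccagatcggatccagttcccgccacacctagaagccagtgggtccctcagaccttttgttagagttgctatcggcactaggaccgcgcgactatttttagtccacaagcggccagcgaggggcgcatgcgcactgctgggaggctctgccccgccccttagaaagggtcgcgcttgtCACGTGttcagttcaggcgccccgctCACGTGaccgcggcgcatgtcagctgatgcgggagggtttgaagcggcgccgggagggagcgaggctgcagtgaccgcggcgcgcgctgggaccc

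AGGAA or its reverse complement occurred 2 times in the *Mcoln3* window, both times on the reverse strand, 1 time in that of *Mcoln2* and not at all in that of *Mcoln1*. Of all 32851 promoter windows of this length 66.7% held at least 1 match and 33.7% held at least 2. CACGTG, which reads the same on both strands, occurred 2 times in the *Mcoln1* window and 1 time in that of *Mcoln2*, but not in that of *Mcoln3*. It was found at least 1 time in 7.15% and at least 2 times in 0.594% of all windows. A match is a description of the letters and does not show that a factor binds there. The window of *Mcoln3* held 57.7% G and C and 12 CpG dinucleotides. That of *Mcoln2* held 66.3% and 26, and that of *Mcoln1* 65% and 30. These values were not set against those of all windows, so nothing is read from them.

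*Mcoln3* had the highest difference of the 3 genes. Its log2 values were 8.01 and 7.84 with EtOH and 9.59 and 9.65 with 4OHT (samples 1 and 2 of each treatment). Both 4OHT arrays lay well above both EtOH arrays, with differences of 1.58 to 1.81 between single arrays of the 2 treatments, against 0.17 between the EtOH arrays and 0.062 between the 4OHT arrays. The means of 7.92 ± 0.12 and 9.62 ± 0.044 (SD, n = 2 each) differed by 1.70 (standard error 0.092), a 3.24-fold higher level. Only 9 of the 19938 genes had a larger increase.

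*Mcoln2*, the neighbour of *Mcoln3*, had log2 values of 8.27 and 8.18 with EtOH and 8.70 and 8.82 with 4OHT. The 4OHT arrays again lay above the EtOH arrays, by 0.43 to 0.64. The means of 8.23 ± 0.060 and 8.76 ± 0.087 (SD, n = 2 each) differed by 0.53 (standard error 0.085), a 1.45-fold higher mean. A larger increase was seen for 1.6% of all genes.

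*Mcoln1*, the widely used member, had log2 values of 10.36 and 10.61 with EtOH and 10.43 and 10.38 with 4OHT. Both 4OHT values fell between the EtOH values. The means of 10.49 ± 0.18 and 10.40 ± 0.038 (SD, n = 2 each) differed by −0.08 (standard error 0.11), less than the gap between the EtOH arrays. Of all genes 61.2% had a larger change in either direction.

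**Figure D1:**
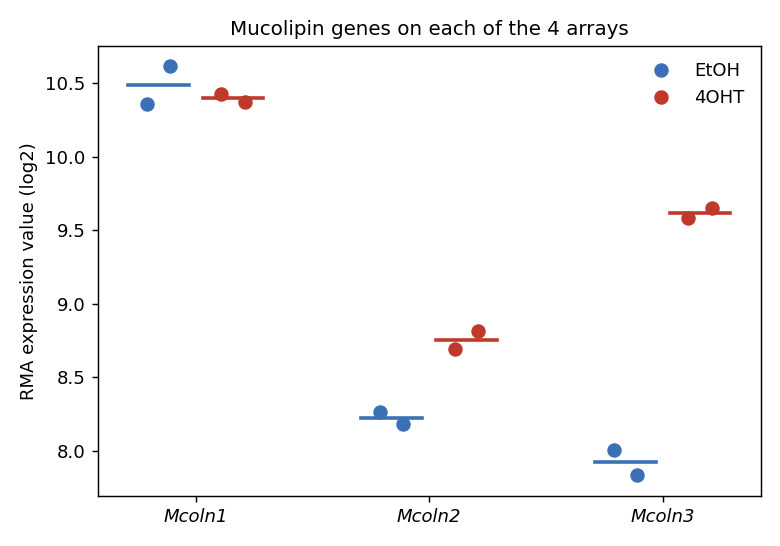
RMA expression values (log2) of the 3 mucolipin genes on each of the 4 arrays, with EtOH in blue and 4OHT in red. Each point is 1 array, and a short line marks the mean of a treatment. The 4OHT arrays of *Mcoln3* (9.59 and 9.65) and *Mcoln2* (8.70 and 8.82) lie above both EtOH arrays, while those of *Mcoln1* lie between them. Levels of different probe sets cannot be compared.

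In counts, 1 of the 3 mucolipin genes, *Mcoln3*, was called, against 4.23% of all genes (1.23% higher and 2.99% lower). With a minimum mean of 6, or over probe sets with 1 symbol, *Mcoln2* was called as well, where 1149 and 2741 genes were called in all. *Mcoln3* kept its call in those settings and after both rescalings of the arrays. Both 4OHT arrays lay above both EtOH arrays for 2 of the 3, as they did for 32.1% of all genes (56.6% with either direction). Since the genes were chosen on this contrast, nothing is read from these counts or from the calls that the members kept, gained or lost. Leaving out 1 of 2 arrays moves a mean by a share of their gap that is fixed in advance, so the values that follow restate the gaps and are no further check. When each array was left out in turn, the difference ranged from 1.61 (without EtOH replicate 2) to 1.78 (without EtOH replicate 1) for *Mcoln3* and from 0.47 to 0.59 for *Mcoln2*. For *Mcoln1* it ranged from −0.21 (without EtOH replicate 1) to 0.04 (without EtOH replicate 2), across 0. *Mcoln3* lost its call when either EtOH array was left out, where limma called no gene at all (2819 and 2586 genes had an unadjusted p under 0.05), nor with the sample number as a block.

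**Figure D2:**
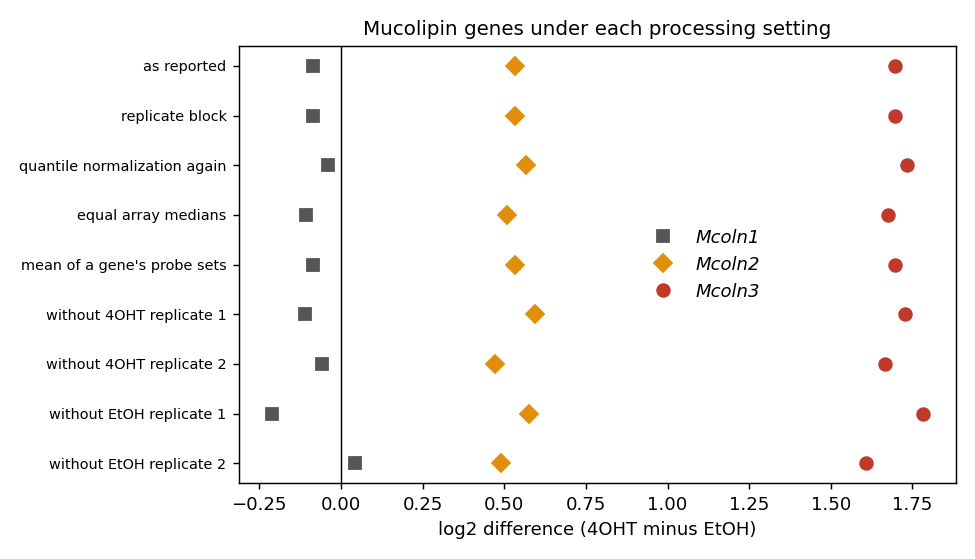
Log2 difference (4OHT minus EtOH) of the 3 mucolipin genes as reported and under 8 other settings, listed on the vertical axis. *Mcoln3* lies between 1.61 and 1.78 and *Mcoln2* between 0.47 and 0.59, while *Mcoln1* lies between −0.21 and 0.04.

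The genes around the mucolipins were examined to see whether the difference extended along the chromosome. *Mcoln3* and *Mcoln2* follow each other on chromosome 3, on the same strand, and the 3 measured genes on either side were taken whatever their values. None of these 6 genes was called by limma, against 4.23% of all genes (1 had an unadjusted p under 0.05). *Wdr63*, whose RefSeq span overlaps that of *Mcoln3*, had log2 values of 5.32 and 5.37 with EtOH and 5.29 and 5.43 with 4OHT. It was thus dim on all arrays, and its treatments overlapped (log2 difference 0.02, limma adjusted p = 0.932). *Lpar3*, a receptor gene for lysophosphatidic acid on the far side of *Mcoln2*, had a log2 difference of 0.07 (limma adjusted p = 0.675). *Syde2* and *2410004B18Rik* had log2 differences of −0.21 and −0.26 (limma adjusted p = 0.393 and 0.230). *Ssx2ip*, a gene for a centrosome and adhesion protein, had a log2 difference of 0.23 (limma adjusted p = 0.402), and *Gm10636* one of −0.10. Among these 8 genes of chromosome 3 the highest differences were those of the mucolipin pair. The mucolipins were chosen with the increase of *Mcoln3* in view, so this order was largely set by the choice and nothing is read from it.

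*Mcoln1* lies on chromosome 8, and none of its 6 measured neighbours was called by limma, against 4.23% of all genes (1 had an unadjusted p under 0.05). They ranged from −0.21 for the zinc finger gene *Zfp358*, the next measured gene on one side, to 0.33 for *Rps23rg1* (limma adjusted p = 0.374 and 0.201). *Pnpla6*, which encodes a phospholipase and is next on the other side, had a log2 difference of −0.13 (limma adjusted p = 0.482).

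**Figure D3:**
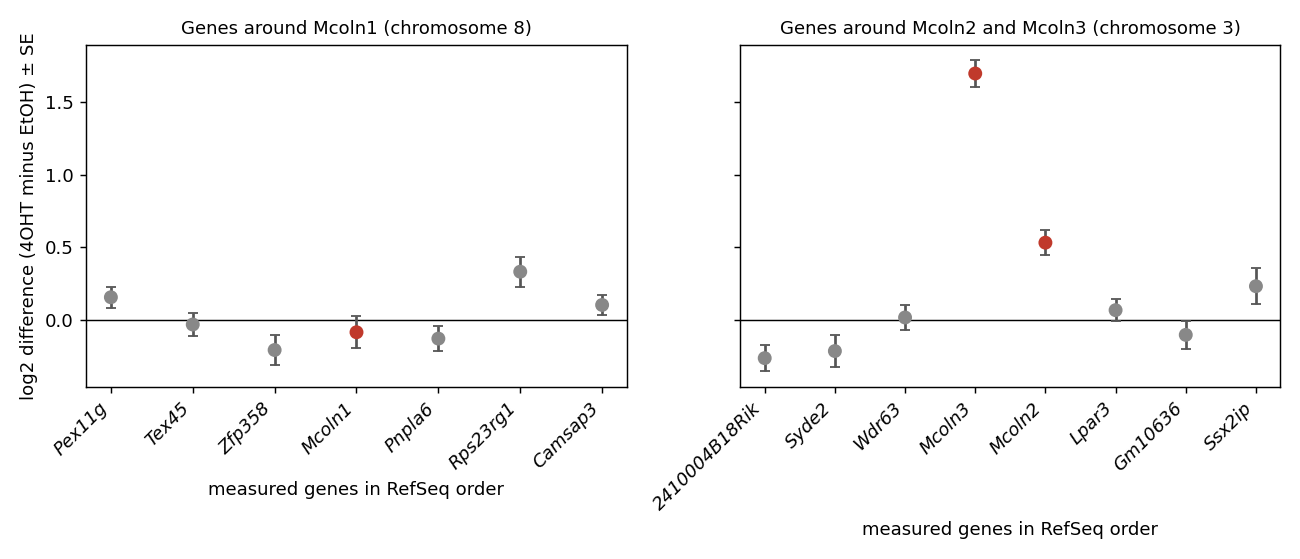
Log2 difference (4OHT minus EtOH) of the mucolipin genes (red) and of the 3 measured genes on either side (grey), in RefSeq order; bars are standard errors from limma (n = 2 arrays per treatment). On chromosome 3 *Mcoln3* (1.70) and *Mcoln2* (0.53), chosen with the increase of *Mcoln3* in view, lie above neighbours between −0.26 and 0.23. On chromosome 8 all 7 genes lie between −0.21 and 0.33.

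The genes whose values over the 4 arrays were most like those of *Mcoln3* were found by the Euclidean distance between log2 values after subtraction of each gene's EtOH mean. The nearest was *Tubb2b*, a β-tubulin gene (distance 0.13 on the log2 scale), with values of 7.99 and 7.77 with EtOH and 9.49 and 9.50 with 4OHT. Next came *Nsg2*, a gene for a protein of neuronal vesicles (0.13), *Gpr162*, an orphan receptor gene (0.15), *Cd6*, an adhesion receptor gene of T cells (0.21), and *Sp100*, a nuclear body gene (0.21). Their log2 differences lay between 1.58 for *Sp100* and 1.75 for *Nsg2*. With 4 arrays of 2 treatments this likeness is set mainly by the size of the difference and is a description without a test. *Mcoln2*, with its smaller difference, was not among them.

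The pathway around the channels was described with 10 lists, of whose 254 genes 240 were measured, each counted once, and the others were not analysed here. The 240 include *Igf2*, which a gene synonym brought in for the listed *M6pr*. *M6pr* was not measured under its own symbol. By limma 6 of the 240 rose, 8 fell and 226 were not called, so that 5.83% were called, against 4.23% of all genes. An unadjusted p under 0.05 was reached by 60 of the 240 and by 4069 of all 19938 genes. An EtOH mean below the median of the EtOH arrays was found for 41 of the 240 and for 9472 of all genes. The shares thus compare genes of unlike brightness. The median log2 difference was 0.01 over the lists and 0.03 over all genes. The listed genes together thus had a median close to that of all genes, and the calls were spread over both directions. They include TRP channel, signalling and autophagy genes beside genes of the lysosome itself. Lists of 9 to 45 measured genes can hold no call at a share of 4.23%, so nothing is read from the share of a single list. The calls rest on all 4 arrays. Uncalled genes named here other than the central ones of each list (such as *Pikfyve* or *Tfeb*) were chosen after their values were seen. Of the 14 called genes, 4 were still called without 4OHT replicate 1 (*Tfe3*, *Slc11a2*, *Laptm4b* and *Lipa*) and none without 4OHT replicate 2, EtOH replicate 1 or EtOH replicate 2, where 51, 42 and 41 list genes had an unadjusted p under 0.05. Their limma adjusted p ranged from 0.0365 to 0.132, 0.0591 to 0.129, 0.112 to 0.219 and 0.133 to 0.227 in these 4 fits. None of the 14 was called with the sample number as a block, where 48 list genes had an unadjusted p under 0.05.

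**Figure D4:**
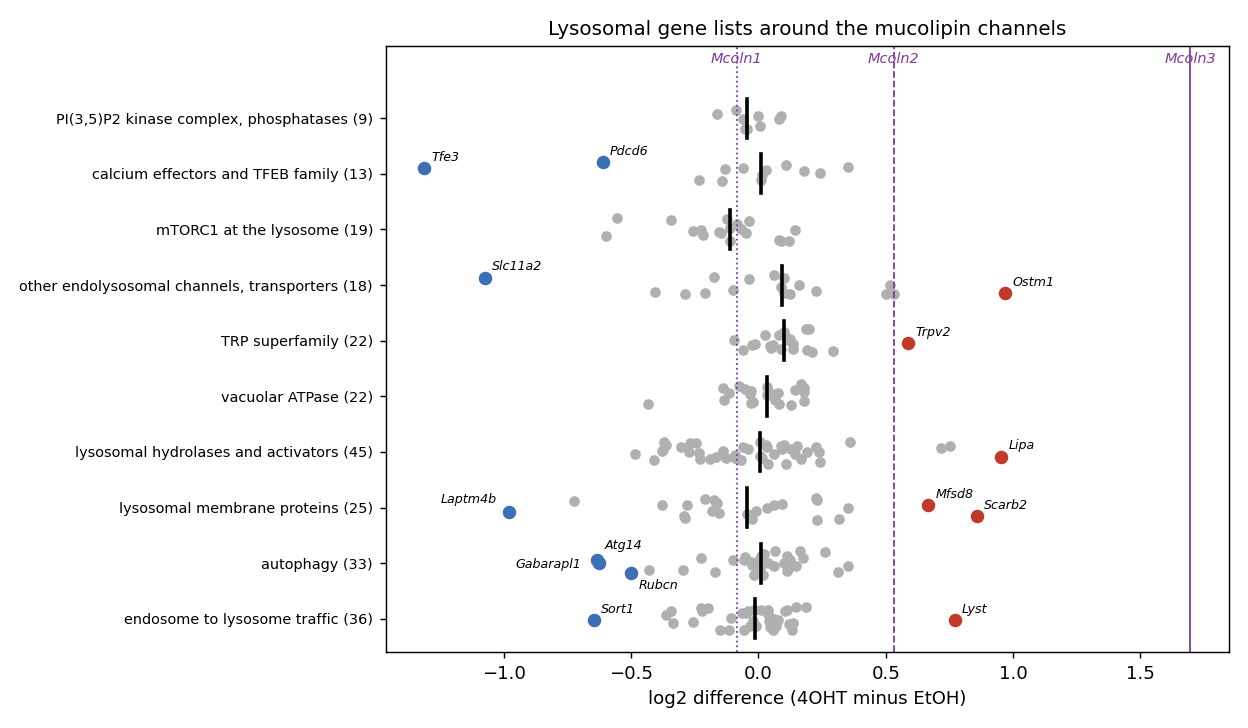
Log2 difference (4OHT minus EtOH) of every measured gene of the 10 lists, with their number in brackets; red points were called higher, blue points lower and grey points neither, and black bars are list medians. Purple lines mark *Mcoln1* (−0.08), *Mcoln2* (0.53) and *Mcoln3* (1.70); *Ostm1* (0.97) is the highest list gene and *Tfe3* (−1.31) the lowest.

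Upstream of the channels, the genes for the kinase complex that makes their activating lipid differed little. None of the 9 genes of PI(3,5)P2 turnover was called by limma, against 4.23% of all genes (0 at an unadjusted p under 0.05). The differences of the 9 lay between −0.16 and 0.09. *Pikfyve*, the kinase gene, had log2 values of 9.06 and 9.03 with EtOH and 9.04 and 9.21 with 4OHT, which overlap (log2 difference 0.08, limma adjusted p = 0.676). *Fig4*, the phosphatase of the complex, and *Vac14*, its scaffold, had differences of −0.05 and −0.09 (limma adjusted p = 0.748 and 0.556).

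Downstream of the channels, *Tfe3* and *Pdcd6* fell, while the other 11 measured genes of calcium effectors and the TFEB family did not pass the test. Thus 15.38% of this list were called, against 4.23% of all genes. *Tfe3*, a transcription factor gene for lysosomes and autophagy, had log2 values of 9.78 and 9.93 with EtOH and 8.55 and 8.54 with 4OHT. The treatments were far apart, and the level was 2.48-fold lower (log2 difference −1.31, standard error 0.084, limma adjusted p = 0.0104). *Pdcd6*, which encodes ALG-2, a calcium sensor that binds TRPML1, went from 9.67 and 9.80 to 9.09 and 9.16, a 1.53-fold lower level (log2 difference −0.61, standard error 0.085, limma adjusted p = 0.0413). *Tfeb* itself had values of 8.06 and 7.94 with EtOH and 8.36 and 8.35 with 4OHT. Its arrays did not overlap, but its difference of 0.35 did not pass the test (standard error 0.081, limma adjusted p = 0.112). *Mitf*, the family member of melanocytes, was dim and differed by 0.01 (limma adjusted p = 0.957). The calcineurin genes *Ppp3ca*, *Ppp3cb*, *Ppp3cc* and *Ppp3r1* had differences from −0.23 to 0.03.

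Of the 19 genes of mTORC1 at the lysosome, the kinase complex that keeps TFEB and TFE3 in the cytoplasm, none was called by limma (4 at an unadjusted p under 0.05). Over all 19938 genes 4.23% were called, and 4069 had an unadjusted p under 0.05. Over probe sets with 1 symbol 3 of the 19 were called lower, where 2741 genes were called in all. The median log2 difference of the 19 was −0.11, and their lowest value was that of *Rragd*, a Rag GTPase gene, at −0.60 (limma adjusted p = 0.0867).

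Among 18 other channels and transporters of lysosomes and endosomes, *Ostm1* rose, *Slc11a2* fell and 16 did not pass the test. Of the 18, 11.11% were thus called, against 4.23% of all genes. After repeated quantile normalization or with a minimum mean of 6, 3 were higher and 1 lower, where 825 and 1149 genes were called in all. Over probe sets with 1 symbol 4 were higher and 3 lower, where 2741 of all 19938 genes were called. *Ostm1*, the partner subunit of the lysosomal chloride-proton exchanger ClC-7, had log2 values of 11.02 and 10.92 with EtOH and 11.94 and 11.94 with 4OHT. This is a 1.96-fold higher level (log2 difference 0.97, standard error 0.077, limma adjusted p = 0.0156). *Slc11a2*, an endosomal iron transporter gene, was 2.11-fold lower (log2 difference −1.08, standard error 0.077, limma adjusted p = 0.0128), from 10.84 and 10.93 to 9.79 and 9.83. The 2-pore channels, which like mucolipins open to PI(3,5)P2, differed by 0.53 for *Tpcn1* (limma adjusted p = 0.0593) and 0.09 for *Tpcn2* (limma adjusted p = 0.579). *Tpcn1* had values of 9.24 and 9.39 with EtOH and 9.89 and 9.81 with 4OHT, so that its arrays did not overlap.

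The wider TRP superfamily to which the mucolipins belong was mostly dim. Of its 22 other measured genes 20 had an EtOH mean below the array medians. *Trpv2*, a calcium channel gene of immune cells, rose 1.50-fold, from 9.65 and 9.74 to 10.23 and 10.34 (log2 difference 0.59, standard error 0.083, limma adjusted p = 0.0423). It was not called after the arrays were given equal medians. *Trpm7*, the other bright member, had a difference of −0.10 (limma adjusted p = 0.552). *Trpv2* was the 1 gene of the 22 that was called (4.545%, against 4.23% of all genes), and the remaining 21 lay between −0.10 and 0.29.

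Of the lysosome itself, the proton pump and most enzymes did not pass the test. None of 22 vacuolar ATPase genes was called by limma, against 4.23% of all genes (1 at an unadjusted p under 0.05). The 22 had a median log2 difference of 0.04. Of 45 hydrolase and activator genes *Lipa*, lysosomal acid lipase, rose, from 9.62 and 9.63 to 10.52 and 10.64 (1.94-fold, log2 difference 0.95, standard error 0.080, limma adjusted p = 0.0166). None was called lower, so that 2.22% were called, against 4.23% of all genes. An unadjusted p under 0.05 was reached by 16 of the 45 and by 4069 of all 19938 genes. With equal array medians, a minimum mean of 6 or an intensity trend 1 was called lower. These settings called 927, 1149 and 919 genes in all. Over probe sets with 1 symbol 4 were higher and 8 lower, where 2741 of all 19938 genes were called. The cathepsin genes *Ctsc* and *Ctsl* had differences of 0.72 and 0.75 without passing it (limma adjusted p = 0.0637 and 0.111), and *Ctsb* one of −0.41 (limma adjusted p = 0.0743).

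Of 25 lysosomal membrane protein genes 2 rose, 1 fell and 22 did not pass (12% called, against 4.23% of all genes). *Scarb2*, which encodes LIMP-2, the carrier of glucocerebrosidase, rose 1.81-fold, from 8.99 and 8.92 to 9.80 and 9.83 (log2 difference 0.86, limma adjusted p = 0.0169). *Mfsd8*, a gene mutated in a neuronal ceroid lipofuscinosis, rose 1.59-fold, from 7.85 and 8.03 to 8.65 and 8.57 (log2 difference 0.67, limma adjusted p = 0.0416). *Laptm4b*, a 4-span membrane protein gene, fell 1.97-fold, from 10.54 and 10.52 to 9.55 and 9.56 (log2 difference −0.98, limma adjusted p = 0.0124). *Lamp1*, the standard lysosomal marker, had values of 11.25 and 11.37 with EtOH and 11.34 and 11.35 with 4OHT, which overlap (log2 difference 0.03, limma adjusted p = 0.852).

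Of 33 autophagy genes 3 were called lower and none higher (9.09% called, against 4.23% of all genes, of which 2.99% lower). These were *Atg14*, a subunit gene of the autophagy PI3-kinase complex (log2 difference −0.63, limma adjusted p = 0.0325), *Gabarapl1*, which encodes a protein of the autophagosome membrane (−0.63, limma adjusted p = 0.0403), and *Rubcn*, which encodes Rubicon, an inhibitor of autophagosome maturation (−0.50, limma adjusted p = 0.0437). *Rubcn* was not called after quantile normalization was repeated. The list median was 0.01. The 36 genes counted for traffic between endosomes and lysosomes include *Igf2*, brought in by a synonym for the listed *M6pr*. Of the 36, *Lyst*, whose loss gives giant lysosomes in beige mice, rose 1.71-fold (log2 difference 0.77, limma adjusted p = 0.0229). *Sort1*, a sorting receptor gene for lysosomal proteins, fell 1.56-fold (log2 difference −0.64, limma adjusted p = 0.0391). The other 34, among them *Igf2*, did not pass the test (5.56% called, against 4.23% of all genes).

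**Figure D5:**
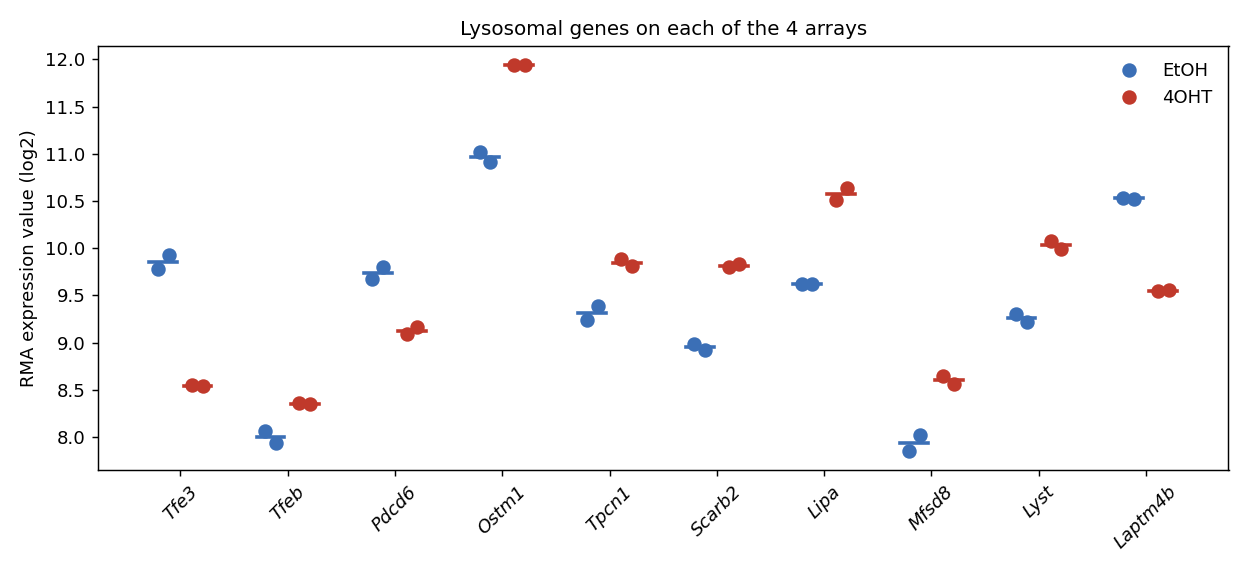
RMA expression values (log2) of 10 lysosomal genes on each of the 4 arrays, with EtOH in blue and 4OHT in red. The 10 genes were picked by hand and do not show the share of each direction. Of the 240 measured list genes 6 were called higher and 8 lower. Called but not shown are *Slc11a2*, *Sort1*, *Atg14*, *Gabarapl1* and *Rubcn* (lower) and *Trpv2* (higher). Each point is 1 array, and a short line marks the mean of a treatment. *Tfe3* (9.78 and 9.93 against 8.55 and 8.54), *Pdcd6* and *Laptm4b* are lower with 4OHT, *Ostm1*, *Scarb2*, *Lipa*, *Mfsd8* and *Lyst* are higher, and *Tfeb* and *Tpcn1* did not pass the test. Levels of different probe sets cannot be compared.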

How the data were processed

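Total RNA of 4 samples of ILC87-Ik1-ER cells was hybridized to Affymetrix Mouse Gene ST 1.0 arrays. The authors deposited log2 values per probe set, made with Affymetrix Expression Console 1.1 and RMA as the submitters' processing notes name them. RMA corrects background, quantile-normalizes between arrays and summarises probes, so that a change shared by most genes is not visible and differences of dim probe sets are compressed. The values (3.09 to 14.24) carry no detection calls, and for the probe sets a genome build was not found in the labels or methods.

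For each probe set limma 3.58.1 under R 4.3.3 fitted the 2 treatments (moderated test, two-sided, 2 residual degrees of freedom, Benjamini-Hochberg over 35556 probe sets). The number of arrays limits the precision. Symbols of 21789 probe sets with 1 gene were updated by Entrez number through RefSeq (GRCm38.p6, 21698 matched), and the probe set with the highest mean stood for a gene. All 3 mucolipins matched a RefSeq promoter window. The members, the gene lists and the tests were chosen with earlier results of these arrays known. Named were the mucolipins, called list members, central list genes, 3 neighbours per side and the 5 genes most like *Mcoln3*, leaving out gene models from the last. Further uncalled list genes, such as *Ctsc* and *Rragd*, were named after their values were seen. No set test was run. The alternatives were a replicate block, 2 rescalings, a minimum mean of 6, probe sets with 1 symbol, an intensity trend, the mean of probe sets, other thresholds and each array left out, and the scripts were tested on simulated data.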

Additional observations from a re-analysis of the deposited data

How the results depend on the processing

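The log2 differences of *Mcoln1*, *Mcoln2* and *Mcoln3* were −0.04, 0.57 and 1.73 after repeated quantile normalization and −0.11, 0.51 and 1.67 with equal array medians; a replicate block or averaging over probe sets of a gene cannot move them. The number of genes called depended on the setting. Over all genes, 5 were higher and 25 lower with the replicate block, 1002 and 1739 over probe sets with 1 symbol, 14 and 59 at an adjusted p under 0.01, and 502 and 1076 under 0.10 (limma, 246 and 597 as reported). Over the lysosome lists, with 6 higher and 8 lower as reported, the same settings gave 0 and 0, 15 and 30, 0 and 0 (60 list genes reached an unadjusted p of 0.05), and 10 and 15. Leaving out 1 array gave 0 to 63 higher and 0 to 178 lower genes, and 0 to 2 higher and 0 to 3 lower list genes. The labels do not say whether same-numbered arrays share a culture, and the correlation of their deviations (r = −0.134 across probe sets, 2 pairs) does not settle it. With the replicate block *Mcoln3* and the 14 list genes were not called. The crossed pairing as a block, chosen after seeing the data, called 146 higher and 389 lower genes, and 4 higher and 4 lower list genes. Of 209 comparisons of 19 named genes with another setting, 123 kept the call, 86 lost it and none changed direction. With 2 residual degrees of freedom, and 1 with a block or when an array is left out, a lost call does not show a smaller change.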
